A study of Mus musculus with 18 samples.

Results

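The comparison of mBaffR-mFc with a control antibody in mouse splenic B cells that received no BAFF rests on 6 of the 18 RNA-seq libraries of the series, 3 for each reagent. They were chosen by their labelled treatment alone. The cells were pan B cells isolated from the spleens of C57BL/6 mice, without a genetic change named in the labels. All cells spent 1 h with 1000 ng/ml of either reagent and then 4 h without BAFF (the groups Ab and BRFc), with 100 ng/ml of BAFF 3mer (Ab_3mer and BRFc_3mer) or with 100 ng/ml of BAFF 60mer (Ab_60mer and BRFc_60mer). mBaffR-mFc is, by its name, a fusion of the mouse BAFF receptor with a mouse Fc part, and the series describes a reagent that blocks the place on BAFF to which the receptor BR3 binds. With no BAFF added, the comparison asks whether that reagent by itself goes with other transcript levels than the control antibody. The target of the control antibody, the age and sex of the mice and any pooling of animals are not given in the sources used here. Each of the 18 libraries had received one of the reagents, so the 6 libraries give baseline levels of cultured cells that met a reagent but no added BAFF.

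BAFF (Tnfsf13b) is a cytokine of the TNF family on which the survival of mature B cells depends. It binds the BAFF receptor BR3 (Tnfrsf13c) and TACI (Tnfrsf13b), while BCMA (Tnfrsf17) is mostly a receptor of plasma cells and also binds the related ligand APRIL (Tnfsf13). Engagement of BR3 removes TRAF3, which otherwise has the kinase NIK (Map3k14) degraded, and NIK then drives the processing of NF-kB2 p100, the noncanonical NF-kB pathway. A soluble receptor fusion protein can bind the ligand away from the cells, and an Fc part can itself be bound by Fc receptors such as Fcgr2b.

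Levels are FPKM, fragments scaled to gene length and to the total of the library, so they are set per gene length. Differences are means of log2(FPKM + 1) in BRFc minus Ab, with the standard error from limma. Library totals of the 6 libraries, recovered from the steps between low values, ran from 15.7 to 25.4 M fragments (M, mega), with 18.6 ± 3.13 M in Ab and 21.6 ± 3.5 M in BRFc (SD, n = 3 each). Replicate 3 stood at both ends, the smallest in Ab and the largest in BRFc. The counting step, the value of a single fragment for 1000 bases of gene, was 0.0393 to 0.0639 FPKM. The replicates are numbered in order of deposition, since the labels give no number and state no pairing. Transcripts of 6 connective tissue genes, which set 8 libraries with BAFF apart (summed level 8.14 to 12.9 FPKM, against 0 to 0.131 in the other 10), were near 0 in all 6 libraries described here.

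No gene passed the test between mBaffR-mFc and control antibody without BAFF. Of 11646 genes tested with limma, 0 were higher and 0 were lower in BRFc at an adjusted p under 0.05 (0% in each direction), and the smallest adjusted p was 0.829. At an unadjusted p under 0.05 stood 688 genes (5.91%), a count that ran from 412 without Ab replicate 1 to 1095 without BRFc replicate 1, and to 1584 with quality weights on the libraries. The 3 libraries of each group did not overlap in 1198 genes (10.3%), of which 582 were higher (5%) and 616 lower (5.29%) in BRFc. Since the cells were measured in bulk, fewer cells of a type and less RNA per cell cannot be told apart in any value given here.

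The estimated differences were small for most genes. The median over all tested genes was -0.0021 on the log2 scale, and the central 90% lay between -0.17 and 0.17. Folds in this paragraph are folds of FPKM + 1, which are smaller than folds of FPKM for low genes. An estimated difference beyond 0.32 on the log2 scale was seen in 196 genes (1.68%), of more than 1.5-fold in 36 (0.309%) and of more than 2-fold in 4 (0.0343%). For 8553 genes (73.4%) the whole 95% confidence interval of the difference lay within 0.32 of 0 on the log2 scale. It lay inside 1.5-fold for 10967 (94.2%) and inside 2-fold for 11531 (99.0%). With log2(FPKM + 0.1) the share within 0.32 of 0 was 65.9%. Libraries of different groups were about as unlike as libraries of the same group: the median absolute log2 difference over genes was 0.0801 to 0.123 in the 9 pairs between groups, 0.0825 to 0.0992 in the 3 pairs within Ab and 0.0865 to 0.118 in the 3 pairs within BRFc.

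How small a difference could be seen depended on the level of the gene. The median standard error was 0.14 for the 2693 genes with a mean under 5 FPKM in the 6 libraries, 0.083 for the 3482 genes from 5 to 20 FPKM, 0.060 for the 4339 genes from 20 to 100 FPKM and 0.055 for the 1132 genes at 100 FPKM or more. The interval lay within 0.32 of 0 for 29.1% of the first class, 76.3% of the second, 93.3% of the third and 94.0% of the last. Both ends of the range of differences were noisy genes with overlapping libraries. Trdd2, a T cell receptor delta diversity segment, had the highest difference at 1.31 ± 0.69 and was listed at 0 in 4 of the 6 libraries. Gm13450, a provisional gene name, had the lowest at -1.03 ± 0.81.

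**Figure D1:**
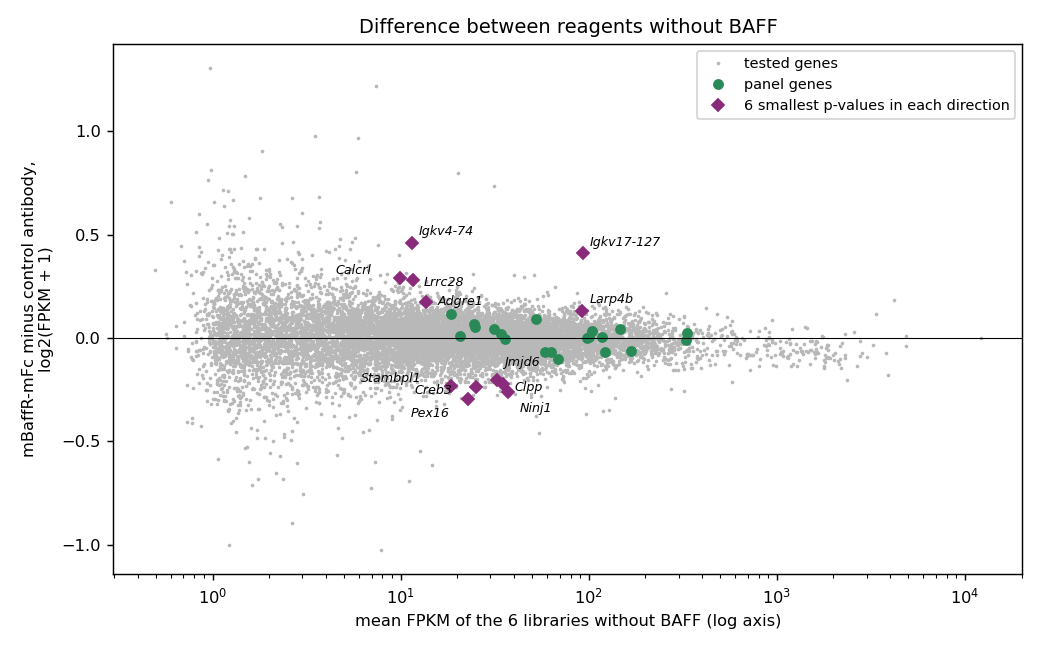
Difference between mBaffR-mFc and control antibody without BAFF (BRFc minus Ab, log2(FPKM + 1)) against the mean FPKM of the 6 libraries on a log axis, 1 grey point a gene (genes at 0 in all 6 libraries are not drawn), with panel genes in green and the 12 named genes as diamonds. The cloud lies around 0, narrows as the level rises, and has no gene at an adjusted p under 0.05.

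The receptors of BAFF were present in every library and at nearly the same level under both reagents. Tnfrsf13c, the BAFF receptor itself and the receptor part by which mBaffR-mFc is named, had 102, 104 and 102 FPKM in Ab and 107, 103 and 106 FPKM in BRFc. The groups overlapped, and the difference was 0.03 ± 0.039 (95% interval -0.05 to 0.11, limma adjusted p = 0.933). Tnfrsf13b, which encodes TACI, had 151, 139 and 144 FPKM in Ab and 147, 156 and 144 FPKM in BRFc, a difference of 0.04 ± 0.042 (interval -0.05 to 0.13). TACI transcripts were thus above those of the BAFF receptor in each of the 6 libraries, per length. Tnfrsf17, which encodes BCMA, stayed between 0 and 0.112 FPKM, and the ligand genes Tnfsf13b and Tnfsf13 between 0 and 0.311 FPKM and between 0.027 and 0.333 FPKM. These 3 genes were below the mean of 1 FPKM needed for a test.

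Genes of the noncanonical NF-kB pathway were expressed without added BAFF and did not pass in either direction. Nfkb2, which encodes p100, had 123, 120 and 132 FPKM in Ab and 115, 118 and 124 FPKM in BRFc, a difference of -0.07 ± 0.081. Relb, whose product pairs with processed p100, had 74.2, 69.2 and 70.2 FPKM in Ab and 69.3, 61.9 and 67.5 FPKM in BRFc. Its difference of -0.10 ± 0.044 had an interval of -0.20 to -0.01 and a limma adjusted p of 0.831, and its groups overlapped at their edges. Birc3, a ubiquitin ligase that acts on NIK, was the most abundant member of the list at 332 FPKM over the 6 libraries and differed by 0.03 ± 0.036. Map3k14 differed by 0.02 ± 0.059 and Traf3 by 0.06 ± 0.051. Of the 9 tested members of the pathway, 0 passed, 5 had a positive and 4 a negative difference, and the median was 0.02. Of 15 tested genes for canonical NF-kB subunits and their IkB inhibitors, 0 passed, 4 were positive and 11 negative, and the median was -0.04. Among them were Nfkb1 (294 FPKM) at -0.02 ± 0.038, the early feedback inhibitor Nfkbia (148 FPKM) at -0.10 ± 0.059 and Nfkbib at -0.13 ± 0.060 (limma adjusted p = 0.831).

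Survival genes gave the same picture. Mcl1, an anti-apoptotic member of the BCL2 family, had 320, 341 and 330 FPKM in Ab and 315, 320 and 351 FPKM in BRFc, and a difference of -0.01 ± 0.049. Bcl2l1, which encodes BCL-XL, had 20.7 FPKM over the 6 libraries and differed by 0.01 ± 0.075, and the kinase gene Pim2 (58.9 FPKM) by -0.07 ± 0.085. Bcl2 had 17.1, 18.1 and 17.8 FPKM in Ab and 16.9, 19.4 and 21.7 FPKM in BRFc, which placed both the lowest and the highest library in BRFc, with a difference of 0.12 ± 0.085. The pro-apoptotic Bcl2l11, which encodes BIM, held between 96.7 and 101 FPKM in all 6 libraries and differed by -0.0014 ± 0.051. Of 13 tested anti-apoptotic and Pim genes 0 passed, 5 were positive and 8 negative. The smallest p in that list belonged to Cflar, an inhibitor of caspase-8 activation, with 89.8 to 95.3 FPKM in Ab and 98.5 to 107 FPKM in BRFc (0.14 ± 0.042, limma adjusted p = 0.829). Of 13 tested pro-apoptotic and caspase genes 0 passed, 4 were positive and 9 negative, with Bax (135 FPKM) at -0.11 ± 0.077.

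Surface molecules, among them CD23, CD21 and ICOSL, which BAFF is known to regulate, were measured with similar precision. Fcer2a, which encodes CD23, had 178, 168 and 169 FPKM in Ab and 167, 162 and 165 FPKM in BRFc. The libraries did not overlap, yet the difference was only -0.06 ± 0.040 and its interval of -0.15 to 0.02 held 0. Cr2, which encodes CD21, had 30.8, 29.3 and 32.4 FPKM in Ab and 31.2, 31.9 and 32.5 FPKM in BRFc (0.04 ± 0.045). Icosl, the ligand of ICOS, ran from 50.4 to 51.1 FPKM in Ab and from 45.7 to 63.1 FPKM in BRFc (0.09 ± 0.084), so that the spread within BRFc exceeded the difference. Fcgr2b, the inhibitory Fc receptor of B cells, had 105, 101 and 93.5 FPKM in Ab and 94.9, 99.3 and 106 FPKM in BRFc, a difference of 0.0031 ± 0.063. Cd40 differed by -0.07 ± 0.061, the egress receptor S1pr1 (118 FPKM) by 0.01 ± 0.035, the plasma cell proteoglycan gene Sdc1 by -0.01 ± 0.078 and the tryptophan-degrading enzyme gene Kynu by 0.06 ± 0.049.

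Of the 23 genes of the panel reported here, 20 were tested and 0 passed. The differences ran from -0.10 to 0.12, and the outer ends of their 95% intervals were -0.25 and 0.30. All 20 intervals therefore lay within 0.32 of 0 on the log2 scale. Leaving out a library in turn kept 18 to 20 of the 20 within it. Bcl2 passed the bound without Ab replicate 2, Ab replicate 3 or BRFc replicate 1, Icosl without BRFc replicate 1 and Pim2 without BRFc replicate 3, with ends of -0.33 and 0.38 at the widest. Without BRFc replicate 1 the difference of Icosl was 0.21 ± 0.069, and without BRFc replicate 3 it was -0.02 ± 0.073. These are bounds on each gene taken singly, within this one set of libraries.

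**Figure D2:**
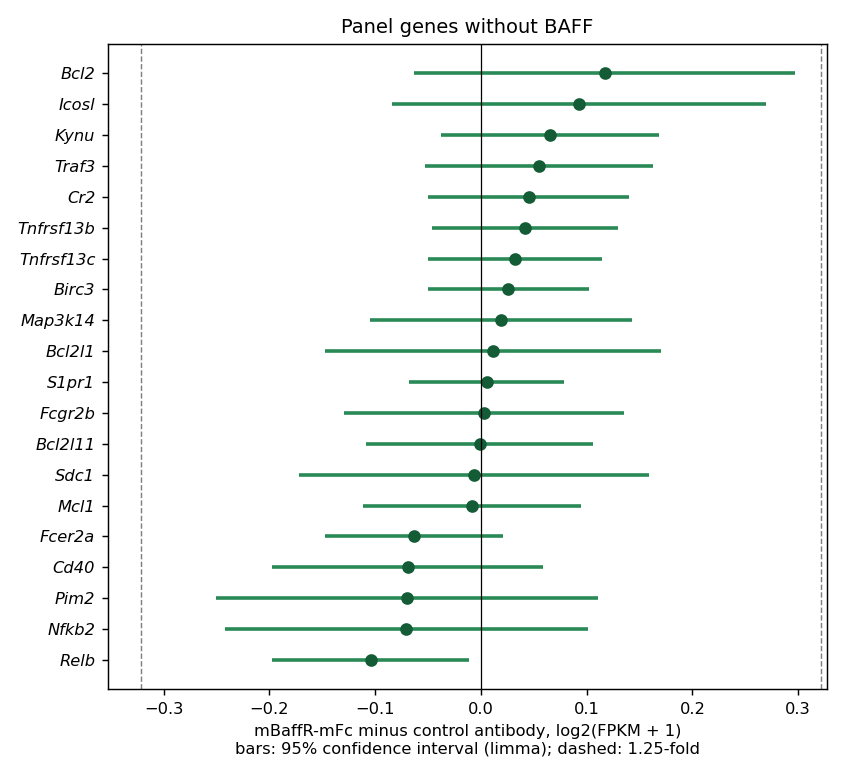
Difference without BAFF (BRFc minus Ab, log2(FPKM + 1)) and its 95% confidence interval from limma for 20 tested genes of the panel, 3 libraries a group; dashed lines mark 0.32 on either side. All intervals stay within 0.32 of 0, and only that of Relb leaves out 0.

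The 6 libraries also describe what splenic B cells express in culture without BAFF. A mean of at least 1 FPKM was reached by 11583 genes, of at least 10 FPKM by 7496, of at least 100 FPKM by 1132 and of at least 1000 FPKM by 93. Eef1a1, a translation elongation factor, was highest at 12188 FPKM, followed by the kappa light chain constant region Igkc at 4888 FPKM, Rps27rt at 4853 FPKM and the nuclear noncoding RNA Malat1 at 4184 FPKM. Rps27rt is a near copy of a ribosomal protein gene, so reads between the copies may have been shared out in an uncertain way. The 20 highest genes took 10.1% to 11.3% of the summed FPKM of a library, and 83 cytosolic ribosomal protein genes took 15.4% to 19.3%.

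The identity of the cells was plain in their transcripts. Ighm, the constant region of IgM, had 2295, 2321 and 2281 FPKM in Ab and 2258, 2299 and 2440 FPKM in BRFc. The signalling partners of the B cell receptor, Cd79a and Cd79b, stood at 870 and 794 FPKM. The IgM Fc receptor Fcmr was at 1156 FPKM, and the MHC class II genes Cd74, H2-Aa, H2-Ab1 and H2-Eb1 at 3255, 1821, 1505 and 1170 FPKM. Of the transcription factors of B cells, Ets1 led with 541 FPKM, ahead of Irf8 (391), Pou2af1 (354), Ikzf3 (227) and Pax5 (202 FPKM). The homing receptors Cxcr4 (640 FPKM), Ccr7 (450), Ccr6 (155) and Cxcr5 (154 FPKM) were all well expressed. Transcripts of activation were present too, with Cd83 at 379 FPKM, the immediate early gene Nr4a1 at 286 FPKM and Myc at 180 FPKM. Constant regions of switched classes were far below Ighm, with Igha at 20.6 and Ighg2b at 13.9 FPKM. Genes of the plasma cell list spanned a wide range, from Mzb1 (217 FPKM), Irf4 (174), Sec11c (122) and Jchain (59.6 FPKM) to Sdc1 at 35.6 and Prdm1, which encodes BLIMP1, at 6.46 FPKM. Germinal centre genes were low apart from Bcl6 (29.1 FPKM), with Mybl1 at 2.35 and Rgs13 at 1.22 FPKM.

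**Figure D3:**
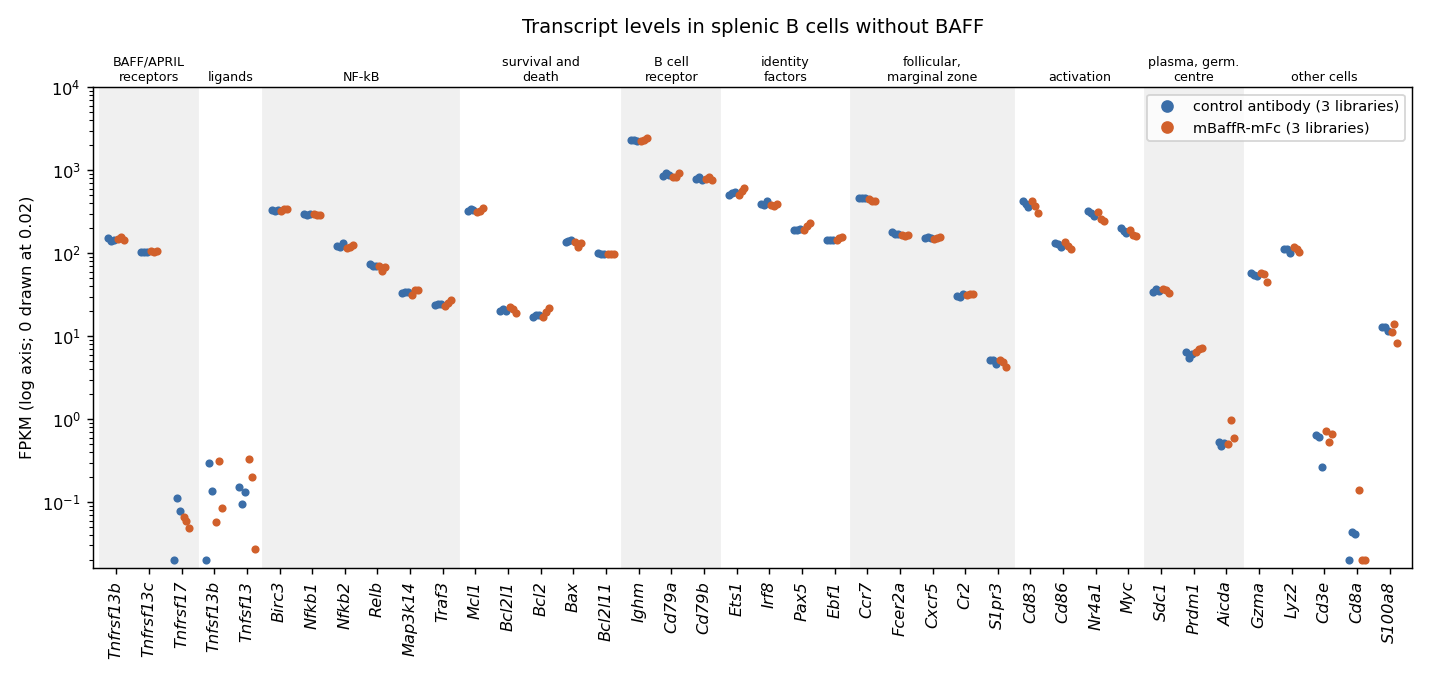
FPKM on a log axis of genes grouped by role in the 3 control antibody and 3 mBaffR-mFc libraries without BAFF, 1 point a library, with 0 drawn at 0.02. The points of both groups lie on each other for the abundant genes and scatter for genes under 1 FPKM such as Tnfrsf17, Tnfsf13b and Tnfsf13.

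The variable segments of immunoglobulin genes showed a diverse population. Of 204 V segments in the table, 182 had a mean of at least 1 FPKM, 92 of the kappa, 3 of the lambda and 87 of the heavy chain, and together the segments took 0.947% to 1.01% of the summed FPKM. Iglv1 was highest at 257 FPKM, then Iglv3 at 209 FPKM and Igkv1-135 at 186 FPKM. Some segments varied widely between libraries of one group: Igkv10-96 had 58.7, 176 and 171 FPKM in Ab and 61.4, 169 and 81.4 FPKM in BRFc. Segments resemble each other closely, so the division of reads among them is uncertain. Of 181 tested segments 0 passed, 106 were positive and 75 negative, and the median difference was 0.04.

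Because no gene passed, the 6 genes with the smallest p-values in each direction were named, among those with a mean of at least 2 FPKM in the higher group and no overlap between the groups. They were selected on these very differences, so their values are a description. Each had a limma adjusted p of 0.829. On the higher side in BRFc stood 2 kappa V segments that lie on chromosome 6 (GRCm38). Igkv4-74 (69184826 to 69185397, minus strand) had 9.97, 9.19 and 9.28 FPKM in Ab and 13.5, 14 and 12.7 FPKM in BRFc, a difference of 0.46 ± 0.11. Igkv17-127 (67861153 to 67861659, plus strand) had 97.9, 75.2 and 67.6 FPKM in Ab and 99.5, 111 and 107 FPKM in BRFc (0.41 ± 0.097). Without Ab replicate 1, which lay nearest to BRFc, it differed by 0.56 ± 0.073 and passed at a limma adjusted p of 0.0128.

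The other 4 on the higher side were genes outside the immunoglobulin loci. Adgre1, which encodes the macrophage surface protein F4/80, had 12.9, 12.8 and 12.7 FPKM in Ab and 14.6, 14.7 and 14.5 FPKM in BRFc (0.18 ± 0.049). Of the 8 tested monocyte and macrophage markers, Adgre1 included, 5 were positive and 3 negative, with a median of 0.06. Lyz2 (110 FPKM) differed by 0.04 ± 0.068, Csf1r (12 FPKM) by -0.02 ± 0.055 and the chemokine receptor gene Ccr2 (11.7 FPKM) by 0.10 ± 0.073, each with overlapping libraries, and Ly6c2 by -0.10 ± 0.15 with libraries that did not overlap. Larp4b, which encodes an RNA-binding protein, had 86.3 to 89.7 FPKM in Ab and 94.8 to 100.4 FPKM in BRFc (0.13 ± 0.036). Calcrl, a receptor subunit for CGRP and adrenomedullin, differed by 0.29 ± 0.080 and Lrrc28 by 0.28 ± 0.075, both from levels near 10 FPKM.

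On the lower side in BRFc, Pex16, which encodes a protein of peroxisome assembly, had 26.9, 24.0 and 25.0 FPKM in Ab and 21.1, 19.1 and 21 FPKM in BRFc (-0.29 ± 0.062). Its p of 0.000211, before adjustment in limma, was the smallest of the 12. Jmjd6, which encodes a Jumonji-domain hydroxylase, had 36.4, 33.9 and 34.5 FPKM in Ab and 29.6, 29.5 and 31.4 FPKM in BRFc (-0.21 ± 0.045). Ninj1, whose product takes part in plasma membrane rupture, had 40.1 to 41.5 FPKM in Ab and 31.0 to 37.0 FPKM in BRFc (-0.26 ± 0.064). The other three were Creb3, a membrane-bound transcription factor of the endoplasmic reticulum (-0.24 ± 0.057), Stambpl1, a deubiquitinase (-0.23 ± 0.051), and Clpp, a mitochondrial protease subunit (-0.22 ± 0.051).

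The same contrast of reagents was available in 12 libraries with BAFF. Their values form no part of the differences without BAFF, although all 18 libraries set the filter and the variance of each gene. Among the 12 named genes the difference had the same sign in 5 with BAFF 3mer, in 6 with BAFF 60mer and in both only for Jmjd6, at -0.01 and -0.04 there. Igkv4-74, at 0.46 without BAFF, stood at 0.40 with BAFF 3mer and at -0.20 with BAFF 60mer. Pex16, at -0.29 without BAFF, stood at 0.04 and 0.12.

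In all 12 the mean of Ab was the highest or lowest of the 6 groups, and in 5 the mean of BRFc was at the other end. In 5 of the 12 the means of the 4 groups with BAFF all lay on the BRFc side of the midpoint between Ab and BRFc. Jmjd6 was among these: its mean was 34.9 FPKM in Ab, 30.1 FPKM in BRFc and between 29.5 and 30.3 FPKM in the 4 groups with BAFF. For Igkv17-127 the mean was 80.3 FPKM in Ab, 106 FPKM in BRFc and between 101 and 111 FPKM in the others. The rest of the 12 did not have this arrangement. The mean of Calcrl was 8.85 FPKM in Ab, 11.1 FPKM in BRFc and between 9.07 and 10.1 FPKM in the groups with BAFF. Over all 688 genes with an unadjusted p under 0.05, Ab was at an end of the 6 group means in 511 (74.3%) and BRFc in 316 (45.9%), where over all tested genes these shares were 39.8% and 29.8%. The 688 were chosen on the Ab and BRFc values, which by itself moves both groups toward the ends.

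**Figure D4:**
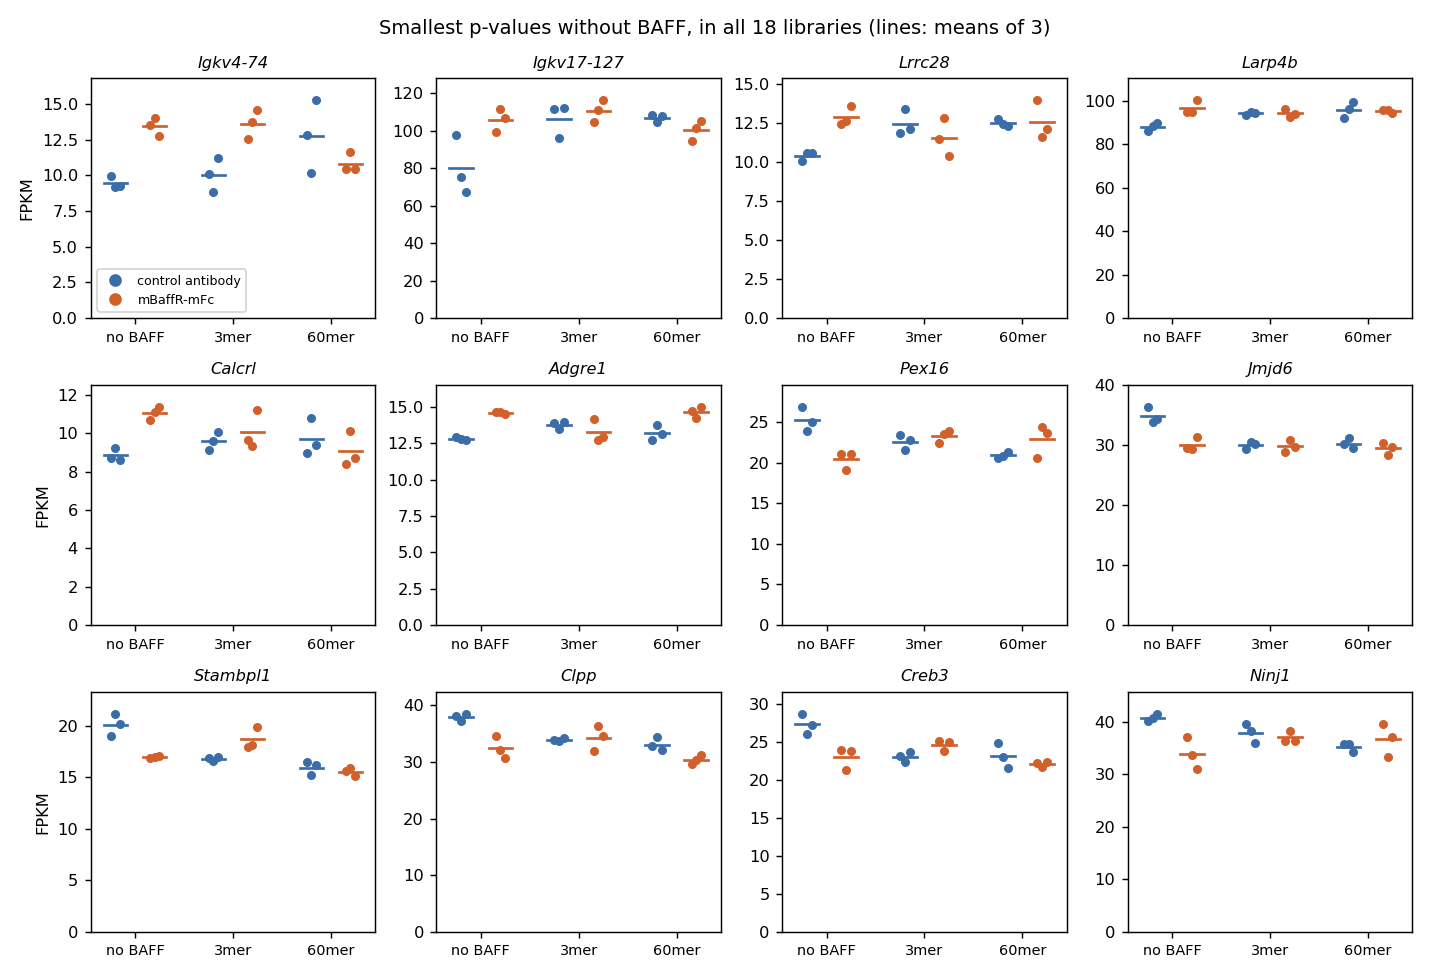
FPKM in each of the 18 libraries of the 12 genes with the smallest p-values without BAFF, 6 in each direction, with points for libraries and lines for means of 3. The control antibody libraries without BAFF have the highest or lowest mean in every panel, and the gap between reagents without BAFF mostly does not recur with BAFF 3mer or 60mer.

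Gene groups were described by how many of their tested members passed and by their median difference, beside a median of -0.0021 and 5710 positive and 5933 negative differences over all tested genes. The median of tested genes fell with level, from 0.013 for genes under 5 FPKM to -0.022 for genes at 100 FPKM or more. No list had a member that passed. The 22 tested genes of the B cell receptor and its signalling had 15 positive and 7 negative differences and a median of 0.03, with the kinase gene Blk at -0.12 ± 0.050 and Prkcb at 0.09 ± 0.042. The 19 transcription factors of B cell identity had 15 positive and 4 negative and a median of 0.05, with Pax5 at 0.12 ± 0.059 and Foxo1 at 0.11 ± 0.060. The groups overlapped in the mean log2(FPKM + 1) of both lists. It was 6.896 to 6.935 in Ab and 6.872 to 6.975 in BRFc for the receptor list. For the identity list it was 6.951 to 6.997 in Ab and 6.940 to 7.087 in BRFc. In both lists BRFc replicate 1 was the lowest library of all and BRFc replicate 3 the highest. The part of BRFc replicate 3 in the positive differences was not tested. Follicular (11 tested) and marginal zone (15 tested) genes had medians of 0.0052 and 0.011. The 10 plasma cell genes had 1 positive and 9 negative differences and a median of -0.05, led by the protease inhibitor gene Slpi at -0.38 ± 0.13, while Prdm1 stood at 0.17 ± 0.085.

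Negative differences outnumbered positive ones among activation and cytokine genes, without a passing member. They also did among sterol synthesis genes (7 positive, 13 negative) and MHC class I genes (3 positive, 7 negative). The lists of B cell receptor and identity genes went the other way. Of 15 tested activation and costimulation genes 4 were positive and 11 negative, with a median of -0.07. The summed level of the list was 993, 942 and 883 FPKM in Ab and 977, 899 and 836 FPKM in BRFc. It fell from replicate 1 to replicate 3 in each group, and the groups overlapped. Icam1, the adhesion ligand of LFA-1, had 23.6, 23.8 and 23.3 FPKM in Ab and 20.8, 19.5 and 20.3 FPKM in BRFc, a difference of -0.22 ± 0.054 (limma adjusted p = 0.829), whereas the hyaluronan receptor gene Cd44 stood at 0.13 ± 0.044. Of 12 tested B cell cytokine genes 2 were positive and 10 negative, with a median of -0.11. Their mean log2(FPKM + 1) was 3.98, 4.04 and 4.00 in Ab and 3.91, 3.90 and 3.93 in BRFc, without overlap. The summed level of the list overlapped between the groups. Lta, which encodes lymphotoxin alpha, differed by -0.26 ± 0.11 and Ebi3, a subunit of IL-27 and IL-35, by 0.38 ± 0.11, both at 2 to 5 FPKM. Of 23 immediate early genes 7 were positive and 16 negative, with a median of -0.04. They summed to 1591, 1513 and 1451 FPKM in Ab and 1561, 1387 and 1389 FPKM in BRFc, again with overlap. Nr4a1 had 319, 304 and 281 FPKM in Ab and 313, 256 and 246 FPKM in BRFc (-0.15 ± 0.17), and Myc differed by -0.11 ± 0.14. The 20 genes of MYC and ribosome biogenesis had 4 positive and 16 negative and a median of -0.04. They summed to 4054, 3978 and 3836 FPKM in Ab and 4028, 3861 and 3761 FPKM in BRFc, with overlap. The 18 of glycolysis and nutrient transport had 4 positive and 14 negative with a median of -0.04. Their summed level overlapped between the groups, but their mean log2(FPKM + 1) did not (6.61 to 6.63 in Ab, 6.55 to 6.60 in BRFc). The mean of the plasma cell list was also lower without overlap (5.181 to 5.223 in Ab, 5.093 to 5.178 in BRFc). Toll-like receptors and adaptors were higher in BRFc without overlap (4.469 to 4.498 in Ab, 4.511 to 4.530 in BRFc). So were monocyte and macrophage markers (3.541 to 3.581 in Ab, 3.584 to 3.607 in BRFc). Among single genes, 10.3% did not overlap.

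**Figure D5:**
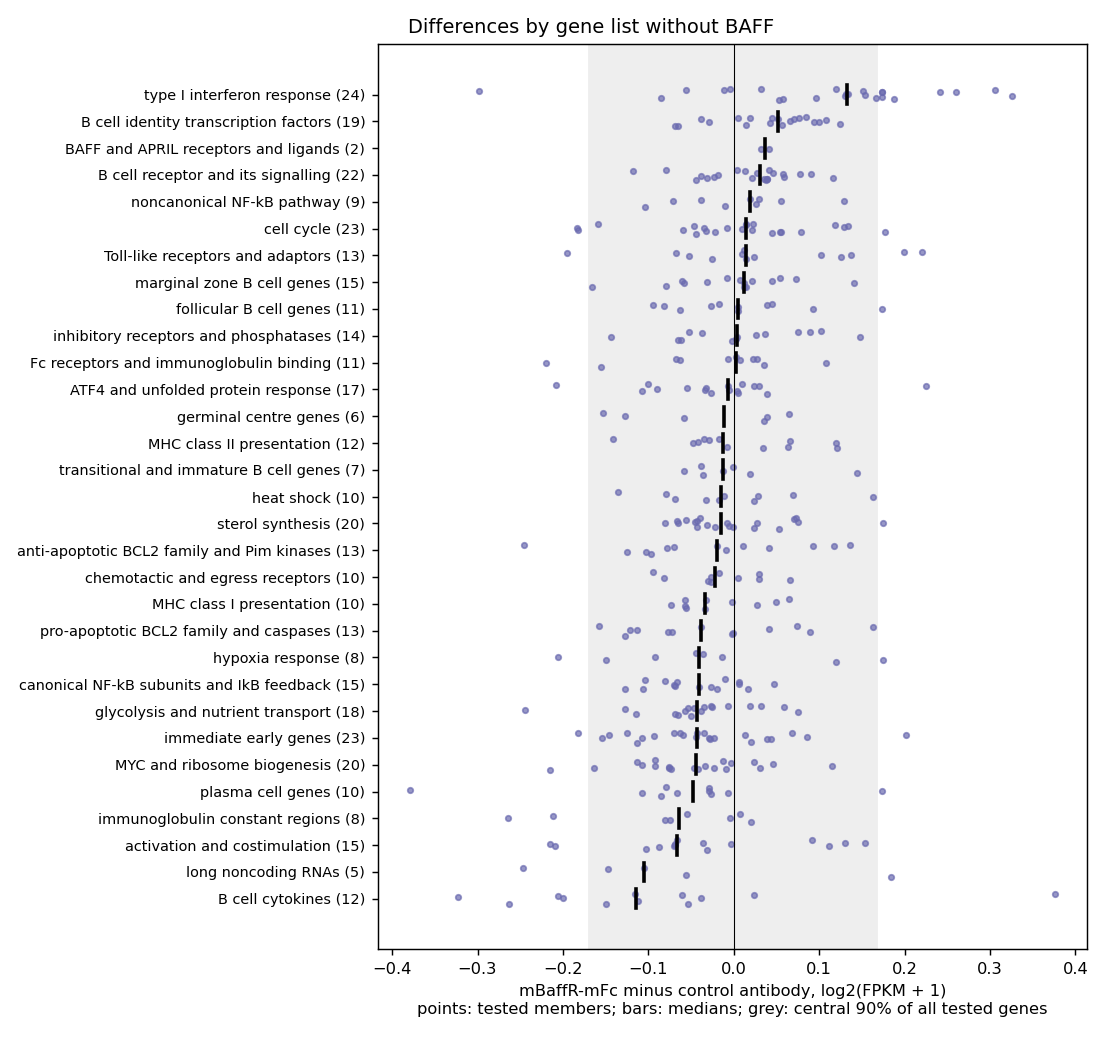
Differences without BAFF (BRFc minus Ab, log2(FPKM + 1)) of the tested members of the gene lists, 1 point a gene, with the median of each list as a bar and the central 90% of all tested genes in grey. Most medians lie within 0.1 of 0, and no point passed the test.

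Several lists, among them type I interferon and ribosomal protein genes, had their extreme library at replicate 3 of both groups. Replicate 3 was also the lowest library of each group in the summed activation, plasma cell and MYC lists. It was the highest of each group in the summed lists of B cell identity factors and MHC class I presentation. Of 24 tested genes of the type I interferon response 19 were positive and 5 negative, with a median of 0.13. The summed level of the list was 339, 364 and 408 FPKM in Ab and 345, 376 and 486 FPKM in BRFc, so the highest library of each group was replicate 3 and the groups overlapped. Trim30a, the most abundant member, had 74.4, 81.9 and 91.9 FPKM in Ab and 81.0, 89.7 and 111 FPKM in BRFc (0.17 ± 0.12). Oas2, a sensor of double-stranded RNA, had the smallest p at 0.33 ± 0.13 (limma adjusted p = 0.829). Isg15 had the lowest difference of the list at -0.30. Of 80 tested cytosolic ribosomal protein genes, a list added with the values in view, 76 were negative and 4 positive, with a median of -0.08. Their share of the summed FPKM was 18.6%, 19.3% and 17% in Ab and 19.2%, 18.4% and 15.4% in BRFc, lowest in replicate 3 of each group. The groups overlapped in this share, and BRFc replicate 3 was the lowest library of all. BRFc replicate 3 had the largest library total and Ab replicate 3 the smallest; the part of these libraries in the medians was not tested.

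Genes that tell the forms of BAFF apart were also examined without BAFF. Ab_60mer against Ab_3mer, a comparison that shares no library with the difference without BAFF, gave 210 higher genes (1.8%) and 350 lower genes (3.01%) by limma, with median differences of 0.32 and -0.30. Between reagents without BAFF, 0 of either set passed, and their medians were 0.02 and 0.0070. Of the 210, 133 were positive and 77 negative, and of the 350, 190 were positive and 159 negative. An unadjusted p under 0.05 was found for 11% of the first set and 11.7% of the second, against 5.91% of all tested genes. Both comparisons take the variance of a gene from the same fit, and the median standard error was 0.063 and 0.062 in these sets and 0.078 over all tested genes. The part of this in the shares was not tested.

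Summed markers of other spleen cells did not pass a test between the reagents, each list given as a summed level over its list with an exact two-sided permutation test that cannot go below p = 0.1 with 3 against 3 libraries. The 10 pan B cell genes summed to 5734 to 5901 FPKM in Ab and 5686 to 5760 FPKM in BRFc (exact p = 0.6). The 12 T cell genes summed to 10.8 to 11.4 and 8.84 to 11.5 FPKM (exact p = 0.4). The 12 NK cell genes summed to 173 to 188 and 168 to 187 FPKM (exact p = 1), led by the granzyme gene Gzma at 54.0 FPKM. The 14 monocyte and macrophage genes summed to 168 to 177 and 172 to 184 FPKM (exact p = 0.4). The 11 neutrophil genes summed to 36, 36.5 and 33.1 FPKM in Ab and 32.4, 34.1 and 23 FPKM in BRFc (exact p = 0.2). Its lowest library was BRFc replicate 3, and Camp, a granule peptide gene, had the lowest difference of the list at -0.60 ± 0.25. Over the 11 marker lists the adjusted p was 0.77, and 1 for NK cells. Over the 6 libraries the plasmacytoid dendritic cell genes summed to 373 to 396 FPKM, the most of any list but that of B cells. The endothelial genes summed to 61.2 to 77.1 FPKM and the megakaryocyte and platelet genes to 39.3 to 45.9 FPKM. A mean below 1 FPKM was found for 3 of the 8 plasmacytoid dendritic cell genes and for 6 of the 8 endothelial genes. Conventional dendritic cell genes summed to 39.9 to 42.9 FPKM and erythroid genes to 3.05 to 4.26 FPKM. Genes on lists of other cells were thus measurable in cells labelled as B cells. How much of each sum came from B cells, and the part of other cells in any difference, was not tested.

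Whether the contrast of reagents differed without BAFF and with BAFF was tested by interaction. With BAFF 3mer, limma gave 0 higher and 0 lower genes between the reagents (0% each, with 452 or 3.88% at an unadjusted p under 0.05), and 0 genes had a different contrast from that without BAFF (560 or 4.81% at an unadjusted p under 0.05). With BAFF 60mer, 3 genes were higher in BRFc_60mer than in Ab_60mer (0.0258%) and 0 lower, with 540 (4.64%) at an unadjusted p under 0.05. A single gene, B3gnt7, passed the interaction (1 of 11646, 0.00859%), and 640 (5.5%) stood at an unadjusted p under 0.05. B3gnt7 encodes a glycosyltransferase that extends N-acetyllactosamine chains and lies on chromosome 1 (GRCm38, 86302832 to 86307305). Without BAFF it had 16.9, 16.9 and 15.6 FPKM in Ab and 16.2, 16.5 and 16.4 FPKM in BRFc, a difference of -0.01 ± 0.063 (interval -0.14 to 0.12). With BAFF 60mer it had 10.8, 12 and 11.8 FPKM under control antibody and 17.9, 18.5 and 17 FPKM under mBaffR-mFc (0.59 ± 0.063, limma adjusted p = 0.000573). The contrast without BAFF less that with BAFF 60mer was -0.60 ± 0.089 (limma adjusted p = 0.0468), and it no longer passed when any one of the 12 libraries was left out (adjusted p = 0.0561 to 0.246).

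The remaining 2 genes that differed between reagents with BAFF 60mer were Pkib and Spp1. Pkib, an inhibitor of protein kinase A, had 14.6, 14.2 and 14.4 FPKM in Ab and 16.3, 18.2 and 16.3 FPKM in BRFc. Its groups without BAFF did not overlap and differed by 0.22 ± 0.081 (limma adjusted p = 0.829), beside 0.60 ± 0.081 with BAFF 60mer (adjusted p = 0.00705). The interaction of -0.38 ± 0.11 did not pass (adjusted p = 0.763). Spp1, which encodes osteopontin, had 1.91, 2.36 and 1.98 FPKM in Ab and 2.13, 1.54 and 1.67 FPKM in BRFc (-0.15 ± 0.14), beside 0.93 ± 0.14 with BAFF 60mer (adjusted p = 0.0163). All 6 libraries with BAFF 60mer and 2 of Ab_3mer carried the connective tissue transcripts that the 6 libraries without BAFF lacked, so the interactions compare across that split, and its part in them was not tested.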

How the data were processed

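RNA was extracted with a kit that included a DNase step, and sequencing and FPKM values came from a company, per the labels' protocols. The authors deposited FPKM for 35275 Ensembl gene IDs in 18 libraries; aligner, counting tool, annotation and genome build are not given in the sources used here. Symbols and positions come from GENCODE mouse release M21 (GRCm38), which matched 34490 IDs. The 6 groups hold 3 libraries each, and whether these came from separate animals or cultures is not stated, so the p-values reflect no more than how these libraries spread, which may be technical.

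Values were taken as log2(FPKM + 1), which understates the change of low genes. A mean FPKM of 1 or more over the 18 columns kept 11646 genes. These went into limma (3.58.1, R 4.3.3) with a trend in the variance, 1 variance per gene over the 6 groups and Benjamini-Hochberg adjustment over all tested genes (adjusted p under 0.05). Intervals are 95%. The deposited FPKM gave library totals through the steps of low single-transcript values, of which 89.0% came out whole to within 0.1 of a fragment; voom on these fragments was an added alternative that gave 0 calls. Marker sums were compared by exact permutation.

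Named genes are a panel of 24 (1 of them is not reported here), the 6 smallest p-values in each direction among genes of at least 2 FPKM in the higher group with non-overlapping libraries and no provisional symbol, up to 4 abundant and 2 low-p members of each list, the 20 highest genes and those passing an interaction. Trdd2, Gm13450, Igkv10-96 and Ly6c2 were named after their values were seen, as were Pkib and Spp1. The genes and lists were chosen with earlier results of these data known. Of 529 list symbols 522 were found in the table, and the rest were not analysed here. Alternatives were another pseudocount, other filters, library weights, rescaling, a model restricted to the contrasted groups and omission of single libraries. The fit was tested on simulated data. Figures were drawn with matplotlib 3.10.9.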

Additional observations from a re-analysis of the deposited data

Results flagged for a closer look

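B3gnt7 was the single gene whose contrast of reagents differed between cells without BAFF and cells with BAFF 60mer by limma's interaction test. The contrast without BAFF less that with BAFF 60mer was -0.60 ± 0.089 on the log2 scale (adjusted p = 0.0468). This interaction did not pass in any of 12 fits that left out a library, nor in 2 of 8 alternative settings. The libraries with BAFF 60mer also carried connective tissue transcripts that those without BAFF lacked, and the part of this was not tested. The larger change was in the control antibody libraries, at 11.5 ± 0.639 FPKM with BAFF 60mer against 16.5 ± 0.747 FPKM without BAFF. The mBaffR-mFc libraries went the other way, at 17.8 ± 0.767 FPKM with BAFF 60mer and 16.4 ± 0.155 FPKM without BAFF, without overlap (SD, n = 3 each).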

How the results depend on the processing

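The comparison without BAFF gave 0 calls under 8 alternative settings and in 5 of 6 fits that left out a library (smallest adjusted p over the settings 0.148 to 0.830). Leaving out a library gave 0 to 1 higher genes, the 1 being Igkv17-127 (0.56) without Ab replicate 1. With BAFF 3mer, 2 genes were higher in a model restricted to the contrasted groups, 1 was lower with no filter on low values, and dropping a library gave 0 to 1 lower. With BAFF 60mer, 1 was lower with no filter, 6 were higher and 2 lower with quality weights, 0 were higher in a model restricted to the contrasted groups, and leaving out a library gave 1 to 6 higher. The interaction with BAFF 3mer gave 1 higher gene with no filter and 0 to 1 in each direction with a library left out. That with BAFF 60mer gave 0 lower genes with no filter, in a model restricted to the contrasted groups and in every fit without a library (0 to 0), where B3gnt7 ran from -0.63 to -0.55. The causes were not tested.

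Of 33 single genes followed through 462 refitted values, 1 value passed, 0 left the interval of the main value, and 21 values in 9 genes took the other sign. Among these was Icosl, at 0.09 in the main fit and -0.02 without BRFc replicate 3. No paired analysis was possible because the labels carry no replicate numbers and state no pairing. Precision was lowest for genes under 5 FPKM, of which 29.1% had an interval within 0.32 of 0 (log2). The part of sequencing depth in this was not tested.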
